A study of Mus musculus with 42 samples.

Results

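The Id family is a group of 4 genes, Id1, Id2, Id3 and Id4, whose proteins carry a helix-loop-helix domain and lack the basic region that touches DNA. The members were chosen by symbol: every probe set of the deposited table that the annotation of the MOE430.2 array assigns to one of these symbols was taken, and the family itself was picked because Id2 and Id4 had opposite cell type patterns in these same data. This gave 8 of 45037 probe sets and 4 of 18193 genes, with 1 probe set for Id1, 3 for Id2, 1 for Id3 and 3 for Id4. All 8 probe sets passed the filter on dim probe sets, under which 3 or more arrays had to read above 5 on the log2 scale. Since the cell type difference guided the choice, it is described below without a test, and tests were made only between ages within a cell type and on other genes.

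An Id protein pairs with an E protein, the common partner of tissue-specific basic helix-loop-helix (bHLH) factors, and the pair cannot bind DNA, so E protein and bHLH targets are held back. Id genes are well-known targets of bone morphogenetic protein (BMP) signalling, in which ligands act through type I and type II receptors on the Smad proteins Smad1, Smad5 and Smad9 with their partner Smad4. In the developing brain Id proteins are known for keeping progenitors from differentiating too early, Id4 is also found in astrocytes and Id2 in several kinds of mature neuron.

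Gene expression was measured in cells picked by hand from the cerebellum of mice of the G42 line, CB6-Tg(Gad1-EGFP)G42Zjh/J, which carry a Gad67-GFP bac transgene in every group and were all labelled male. The transgene drives green fluorescent protein from the Gad1 locus sequence, so it marks GABAergic neurons of more than one kind, and cells were sorted on this fluorescence and on the size of the soma after slices had been held in AP5, CNQX and TTX and digested with protease type XIV. Purkinje cells, whose axons are the only output of the cerebellar cortex, were sampled at P3 (3 arrays), P7 (3), P14 (3), P21 (4), P28 (4), P35 (4) and P56 (4), where P is the postnatal day. Stellate/Basket cells, the interneurons of the molecular layer, were sampled at P14 (4 arrays), P21 (3), P28 (4), P35 (2) and P56 (2). The polyadenylated RNA of each sample went through a pair of amplification rounds, and the sources used here do not say how many animals stand behind a sample. Values are log2 signals per probe set, from 3.94 to 14.3 with array medians between 5.91 and 6.16, and no detection call comes with them, so a level near the low end is uncertain and a fold against it is too. Probe sets differ in how brightly they hybridise, so levels are compared within a probe set and never between genes.

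Some libraries went against their labels. Marker lists are given as the mean log2 value over their measured genes. The 8 molecular layer interneuron markers averaged 9.96 at P3 and 9.99 at P7 in arrays labelled Purkinje, then between 5.60 and 5.76 from P14 to P56, while the 10 Purkinje markers averaged 7.93 at P3, 9.52 at P7 and between 12.59 and 12.84 afterwards. In Stellate/Basket arrays the interneuron markers averaged 10.99 at P14, 10.92 at P21, then 10.71 at P28, 10.31 at P35 and 6.34 at P56. The Purkinje markers in these same arrays averaged 8.58 at P14, 9.56 at P21, then 10.34 at P28, 10.14 at P35 and 11.77 at P56. The 12 astrocyte and Bergmann glia markers averaged between 6.84 and 7.60 in Purkinje arrays from P14 to P56, against 7.62 at P14 and between 9.79 and 10.99 at the later ages in Stellate/Basket arrays. Xist, the RNA of the inactive X chromosome, was above 9 in 13 of 25 Purkinje arrays and in 14 of 15 Stellate/Basket arrays although all animals were labelled male. These values stand beside the results they move with. In sorted material of this kind, fewer cells of a type and less RNA per cell cannot be told apart.

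The bases upstream of the start of Id2, Id3 and Id4 are shown because the members had different patterns over age and cell type while the E box, to which E proteins bind, and a GC-rich element known from BMP-responsive promoters are the sequences most often discussed for this family. Each run covers the 250 bases before the annotated start on the gene's strand, 5′ to 3′, from RefSeq in build GRCm38.p6, with matches to CANNTG and GGCGCC in capitals; both motifs read the same on either strand and no matches overlapped. The Id2 window is chr12:25096093-25096342 on the minus strand, the Id3 window chr4:136143572-136143821 on the plus strand and the Id4 window chr13:48260866-48261115 on the plus strand.
Id2: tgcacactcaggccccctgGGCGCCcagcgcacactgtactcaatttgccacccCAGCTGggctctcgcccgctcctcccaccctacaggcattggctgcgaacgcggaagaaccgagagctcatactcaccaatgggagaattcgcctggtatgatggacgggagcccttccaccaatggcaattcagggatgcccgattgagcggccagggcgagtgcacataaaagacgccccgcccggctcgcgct
Id3: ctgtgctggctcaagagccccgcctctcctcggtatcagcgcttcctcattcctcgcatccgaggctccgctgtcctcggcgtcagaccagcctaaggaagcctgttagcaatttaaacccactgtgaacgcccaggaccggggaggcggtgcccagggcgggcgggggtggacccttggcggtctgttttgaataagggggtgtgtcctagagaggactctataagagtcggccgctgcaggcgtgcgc
Id4: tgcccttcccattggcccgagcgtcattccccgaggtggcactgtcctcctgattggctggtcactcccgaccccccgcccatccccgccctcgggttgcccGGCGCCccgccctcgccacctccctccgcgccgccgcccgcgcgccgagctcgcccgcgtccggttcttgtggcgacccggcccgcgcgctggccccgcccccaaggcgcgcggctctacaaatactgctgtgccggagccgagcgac
The Id2 window held 1 E box, CAGCTG, starting 196 bases before the start, and 1 GGCGCC starting 231 bases before it. The Id4 window held 1 GGCGCC, starting 148 bases before the start, and no E box. The Id3 window held neither set of letters. Of 32536 RefSeq promoter windows of this length, 66.2% held CANNTG and 9.65% held GGCGCC, so a single match is no mark of the family. The GC content was 62.8% for Id2, 62.8% for Id3 and 75.6% for Id4.

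Id2, known in neurons for restraining E proteins and for binding the retinoblastoma protein, was the member with the higher level in Purkinje cells at every shared age. At probe set 1435176_a_at the 3 Purkinje arrays at P14 read 12.82, 12.85 and 12.56, against 6.55, 5.99, 5.56 and 5.75 in the 4 Stellate/Basket arrays. At P21 the Purkinje arrays read 12.97, 12.91, 12.88 and 12.85, against 8.69, 8.09 and 9.57 in Stellate/Basket arrays. The Stellate/Basket values were already higher at P21 than at P14, while the Purkinje values stood at the same height. At P28 Id2 read 12.20, 12.18, 12.43 and 12.58 in Purkinje arrays, against 9.67, 9.73, 9.62 and 9.06 in Stellate/Basket arrays. At P35 it read 12.63, 12.66, 12.72 and 12.69 in Purkinje arrays, against 9.98 and 9.50 in Stellate/Basket arrays. At P56 it read 12.88, 12.68, 12.51 and 12.93 in Purkinje arrays, against 12.34 and 10.62 in Stellate/Basket arrays. No Stellate/Basket array reached a Purkinje array of its age, and the 2 P56 Stellate/Basket arrays lay far apart from each other.

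The Purkinje minus Stellate/Basket difference of this Id2 probe set was 6.78 at P14, a 110-fold difference, and 4.12 at P21, then 2.83 at P28, 2.93 at P35 and 1.27 at P56. Probe set 1422537_a_at gave 4.88 at P14, 4.74 at P21, then 4.69 at P28, 2.92 at P35 and 2.52 at P56, and 1453596_at, a dim probe set with means between 5.49 and 7.57, gave between 0.90 and 1.58. At all 5 ages and all 3 probe sets every Purkinje array was above every Stellate/Basket array. The narrowing with age at 1435176_a_at came from the Stellate/Basket side, where the mean was 5.96 ± 0.43 at P14 (SD, n = 4), 8.78 ± 0.74 at P21 (n = 3), then 9.52 ± 0.31 at P28 (n = 4), 9.74 ± 0.34 at P35 (n = 2) and 11.48 ± 1.21 at P56 (n = 2). The Purkinje markers moved with it: the P56 Stellate/Basket array with Id2 at 12.34 had a Purkinje marker mean of 12.48, and the one with Id2 at 10.62 had 11.06. At P14 the 4 Stellate/Basket arrays had Purkinje marker means between 7.81 and 9.22. The highest was in the array with the most Id2 at 1435176_a_at, 6.55. At 1422537_a_at and 1453596_at the array with the most Id2, at 6.43 and 5.64, was the one with the lowest marker mean, 7.81. The part of these markers in the Id2 values was not tested.

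Before P14 the Purkinje arrays had less Id2. The 3 arrays at P3 read 9.83, 9.84 and 9.26 at 1435176_a_at and the 3 at P7 read 11.13, 10.63 and 11.33, so neither group reached the lowest P14 array. In Purkinje cells the order of the group means was P21, P56, P14, P35, P28, P7 and P3, from 12.90 down to 9.64. The first 4 of these overlapped with their neighbours, and P28, P7 and P3 were each separate from the next age above them. In Stellate/Basket cells P56 was highest and P14 lowest, both separate from their neighbours, and P35, P28 and P21 overlapped in turn.

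**Figure D1:**
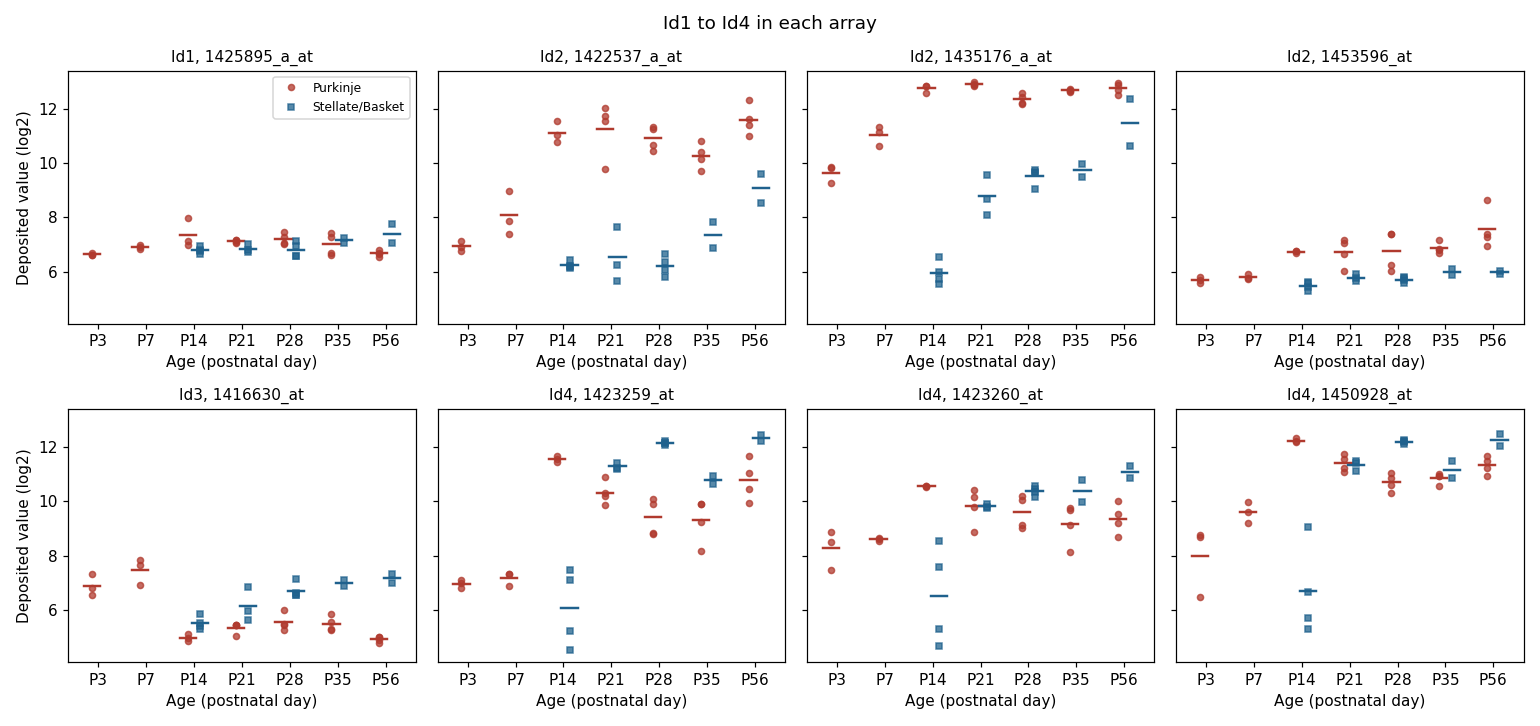
Deposited log2 value of each of the 8 Id probe sets (y axis) by postnatal age (x axis), 1 point per array, Purkinje arrays as circles and Stellate/Basket arrays as squares, with a bar at each group mean. At Id2 1435176_a_at the P14 Purkinje arrays sit at 12.56 to 12.85 and the Stellate/Basket arrays at 5.56 to 6.55, while at Id4 1450928_at the same Stellate/Basket group spreads from 5.31 to 9.04.

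Id4, which in the brain is known from neural progenitors and astrocytes, did not keep one order between the cell types. At P14 all 3 Id4 probe sets were higher in Purkinje cells. At 1450928_at the Purkinje arrays read 12.32, 12.18 and 12.20 at P14, against 5.31, 5.71, 9.04 and 6.68 in Stellate/Basket arrays. The Purkinje arrays were tight and the Stellate/Basket arrays covered a wide range, yet the groups did not overlap. At P21 the Purkinje arrays read 11.08, 11.74, 11.24 and 11.55, against 11.13, 11.50 and 11.39 in Stellate/Basket arrays, which fell inside the Purkinje range. At P28 the Purkinje arrays read 10.29, 10.59, 11.03 and 10.87, against 12.27, 12.21, 12.17 and 12.11 in Stellate/Basket arrays. Here the order was the opposite of that at P14, again without overlap. At P35 the Purkinje arrays read 10.94, 11.02, 10.57 and 10.94, against 11.47 and 10.86 in Stellate/Basket arrays, and the groups overlapped. At P56 the Purkinje arrays read 11.49, 11.24, 10.92 and 11.66, against 12.02 and 12.47 in Stellate/Basket arrays. Both Stellate/Basket arrays were then above all 4 Purkinje arrays.

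As differences, Purkinje minus Stellate/Basket, 1450928_at gave 5.55 at P14 (46.8-fold), 0.06 at P21, then -1.49 at P28, -0.29 at P35 and -0.92 at P56. Probe set 1423259_at gave 5.48 at P14 (44.5-fold), -0.96 at P21, then -2.73 at P28, -1.47 at P35 and -1.56 at P56. Its arrays did not overlap at any of these ages. Probe set 1423260_at gave 4.04 at P14, -0.79 at P28, -1.19 at P35 and -1.71 at P56, and its arrays overlapped at P21 and P28. The family was picked for opposite patterns of Id2 and Id4. The means of all 3 Id4 probe sets were lower in Purkinje cells at P28, P35 and P56, whereas at P14 those of both genes were higher there.

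The 4 Stellate/Basket arrays at P14 split in all 3 Id4 probe sets. Replicates 1 and 2 read 5.22 and 4.52 at 1423259_at and replicates 3 and 4 read 7.49 and 7.09, and at 1423260_at the values were 5.31, 4.70, 8.54 and 7.57 in the same order. The astrocyte and Bergmann glia markers averaged 7.25, 7.04, 8.23 and 7.95 in these arrays, so the arrays with more Id4 were also those with more of these markers. From P21 on, Id4 in Stellate/Basket cells and the glial markers were both high, the markers between 9.60 and 11.21 in single arrays, with Purkinje arrays of the same ages between 6.59 and 8.52. Of the 12 glial markers, 8 rose in Stellate/Basket cells at P21 relative to P14, 10 at P35 and 11 at P56. Over all probe sets 0.82% rose at P21, and over all genes 1.96% rose at P35 and 6.42% at P56. The values of these glial markers stand beside those of Id4. Their part in the Id4 values was not tested.

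In Purkinje cells the P14 mean was the highest of the 7 ages at all 3 Id4 probe sets. The means of 1450928_at were 7.98 ± 1.29 at P3 and 9.59 ± 0.39 at P7 (SD, n = 3 each), 12.23 ± 0.07 at P14 (n = 3), and 11.40 ± 0.30 at P21, then 10.70 ± 0.32 at P28, 10.87 ± 0.20 at P35 and 11.33 ± 0.32 at P56 (n = 4 each). At this probe set the P14 arrays were above all arrays of every other age, whereas at 1423259_at a P56 array read 11.65 and the P14 arrays 11.57, 11.44 and 11.66. At P3 1 array read 6.48 at 1450928_at and the others 8.69 and 8.75. The means at P21, P56, P35 and P28 overlapped in that order, and P7 and P3 lay below them and apart from each other. In Stellate/Basket cells the order was P56 and P28, which overlapped, then P21 and P35, which overlapped, and then P14.

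**Figure D2:**
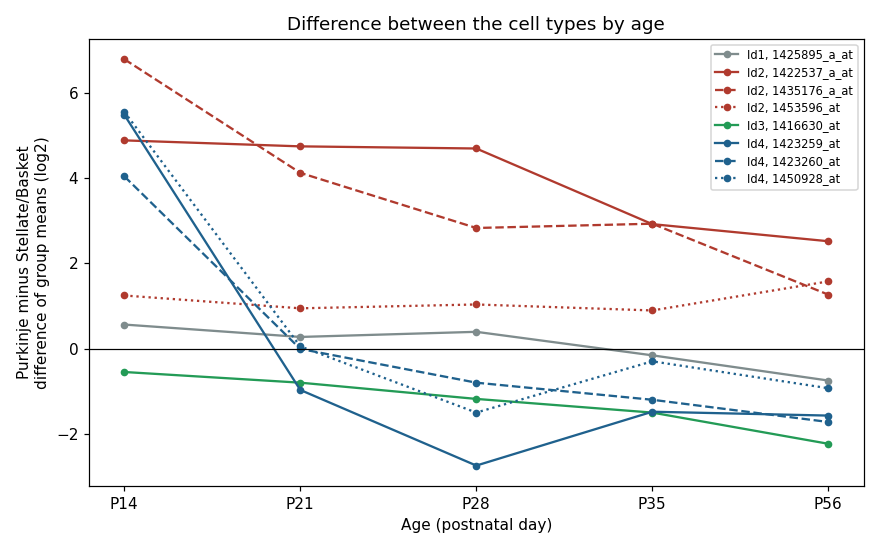
Purkinje minus Stellate/Basket difference of the group means (log2, y axis) at the 5 shared ages (x axis), 1 line per probe set. The 3 Id2 lines stay above 0 throughout, the 3 Id4 lines start between 4.04 and 5.55 at P14 and are below 0 from P28, and the Id3 line runs from -0.54 at P14 to -2.22 at P56.

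Id3, a BMP-responsive member close to Id1 in its uses, was lower in Purkinje cells at all 5 shared ages. At P14 probe set 1416630_at read 5.13, 4.86 and 4.97 in Purkinje arrays, against 5.32, 5.43, 5.85 and 5.51 in Stellate/Basket arrays. At P56 it read 4.91, 5.01, 5.03 and 4.81 in Purkinje arrays, against 7.33 and 7.00 in Stellate/Basket arrays. All of these P14 and P56 Purkinje values, and the P14 Stellate/Basket values, lie near the low end of the scale, below every array median. The difference was -0.54 at P14, -0.79 at P21, then -1.17 at P28, -1.49 at P35 and -2.22 at P56, the last a 4.67-fold lower level in Purkinje cells, and no arrays overlapped at any of these ages. Stellate/Basket means were 5.53 ± 0.23 at P14, 6.15 ± 0.64 at P21, then 6.71 ± 0.29 at P28, 6.99 ± 0.17 at P35 and 7.16 ± 0.23 at P56 (SD), each overlapping the next.

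The youngest Purkinje arrays had more Id3 than the older ones. It read 7.34, 6.55 and 6.80 at P3 and 6.92, 7.67 and 7.85 at P7, above all Purkinje arrays from P14 on, of which the highest read 6.01. Those P3 and P7 arrays are the ones in which the interneuron markers averaged 9.96 and 9.99. The Golgi and unipolar brush cell markers averaged 8.83 and 8.82 there, and between 6.30 and 6.67 in later Purkinje groups. The granule cell markers averaged 7.58 and 7.65, and later between 6.05 and 6.43. The glial markers averaged 7.81 and 7.84, and later between 6.84 and 7.60. At P14, where the interneuron markers were high in Stellate/Basket cells, Id3 in those cells was 5.53. The part of the marker levels in the Id3 values was not tested.

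Id1, the classic early target of BMP signalling, varied least. Its single probe set, 1425895_a_at, had group means between 6.65 and 7.41 in all 12 groups. At P14 it read 7.00, 7.99 and 7.12 in Purkinje arrays, against 6.66, 6.94, 6.78 and 6.82 in Stellate/Basket arrays. At P56 it read 6.66, 6.55, 6.82 and 6.68 in Purkinje arrays, against 7.06 and 7.76 in Stellate/Basket arrays. The Purkinje arrays were thus above the Stellate/Basket arrays at P14 and below them at P56, by 0.57 and -0.74 as differences of the means, and the groups overlapped at P28 and P35. In Purkinje cells the order was P14, P28, P21, P35 and P7, each overlapping the next, and then P56 and P3. In Stellate/Basket cells the order was P56, P35, P21, P28 and P14. P35 was separate from P21, but 1 P28 array, at 7.14, reached into the P56 and P35 groups.

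Over the family, 7 of 8 probe sets at P14 had every Purkinje array above every Stellate/Basket array and 1 had every one below. The same held for 22.4% and 17.2% of all 41843 probe sets tested. At P21 it was 4 above and 2 below, against 20.6% and 16.3% of all probe sets. At P28 it was 3 above and 3 below, against 22.1% and 16.8%. At P35 it was again 3 above and 3 below, against 16.1% and 18.8%, and at P56 it was 3 above and 5 below, against 17.8% and 24.4%. Because the family was chosen on this contrast, these shares are a background only. Xist was above 9 in 0 of 3 Purkinje arrays and 4 of 4 Stellate/Basket arrays at P14, so the Xist level moved with the cell type at that age.

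Changes with age were tested with limma across all 41843 probe sets, with p-values adjusted by the Benjamini-Hochberg method, and a probe set was called when the adjusted p was under 0.05 and the log2 difference at least 1. Over the 7 Purkinje ages the F test, which asks for any difference among ages, had an adjusted p under 0.05 for all 8 Id probe sets, with 51.8% of all probe sets doing so. Over P14 to P56 alone this was so for 2 of 8, against 28.3% of all. These were Id4 1423259_at with an adjusted p of 0.00241 and Id1 with 0.0415. Over the 5 Stellate/Basket ages it was so for 6 of 8, against 36.5% of all, and over P14 to P35 for 5 of 8, against 15.2%.

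The main Purkinje change lay between P7 and P14. At P14 relative to P7, 5 Id probe sets rose and 1 fell, while 4.32% of all probe sets rose and 5.62% fell. Id4 1423259_at had 11.57, 11.44 and 11.66 at P14, against 6.90, 7.32 and 7.31 at P7, and rose by 4.38 ± 0.51 (SE, limma adjusted p = 7.06e-08). Id4 1450928_at rose by 2.64 ± 0.54 and 1423260_at by 1.97 ± 0.60, with limma adjusted p of 4.91e-04 and 0.0203. The call of 1423260_at was lost without P7 replicate 1 (limma adjusted p = 0.0635) and without each P14 array in turn (0.0553, 0.0565 and 0.0526). Id2 1422537_a_at had 11.03, 11.55 and 10.78 at P14, against 7.88, 7.38 and 8.98 at P7, and rose by 3.04 ± 0.48 (adjusted p = 1.25e-05). Id2 1435176_a_at rose by 1.72 ± 0.31 (adjusted p = 9.37e-05). The dim Id2 probe set 1453596_at differed by 0.92 ± 0.31, under the minimum of 1. Id3 fell by 2.49 on the log2 scale (SE 0.25, adjusted p = 4.42e-09), to 4.98 at P14 against 7.48 at P7. Id1 differed by 0.45 ± 0.21 with an adjusted p of 0.154. No P14 array overlapped a P7 array in any of the 8 probe sets, though for Id1 the nearest arrays read 7.00 at P14 and 6.99 at P7. The share of all probe sets without overlap between these ages was not taken, so this count stands without a background.

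The marker lists moved in the same interval. Of the 8 interneuron markers all 8 fell at P14 relative to P7, with a median difference of -4.45, and 8 of the 10 Purkinje markers rose, with a median of 2.99. Over all genes 5.7% rose and 6.83% fell. Of the 6 Golgi and unipolar brush cell markers 5 fell, and of the 12 glial markers 1 rose and 5 fell, against a median over all 17477 genes of 0.07. Of the 7 granule cell markers 3 fell, with a median of -0.99. Their part in the Id changes was not tested. For P56 relative to P3, an interval with the same marker shift, 5 Id probe sets rose and 1 fell, against 6.91% and 6.71% of all probe sets. Id2 1422537_a_at was 4.63 ± 0.44 higher, 1435176_a_at 3.11 ± 0.29 and 1453596_at 1.88 ± 0.29. Id4 1423259_at was 3.80 ± 0.48 and 1450928_at 3.35 ± 0.51 higher, Id3 was -1.96 ± 0.24, and limma adjusted p ran from 3.70e-10 to 6.47e-06 for these 6.

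From P14 on, the ages at which the interneuron markers were low in Purkinje arrays, few tests passed. Between P56 and P14 limma called 0 of 8 Id probe sets, with 3 of 8 at an unadjusted p under 0.05, and 1.57% of all probe sets were called. Id2 1435176_a_at was 12.75 at both ages, a difference of 0.01 ± 0.29. Id3 was 4.94 at P56 against 4.98 at P14. Id1 was lower by -0.69 ± 0.19 with a limma adjusted p of 0.0166, under the minimum difference. The Id4 differences were -0.79, -1.21 and -0.90, each with an SE of 0.48 to 0.56. Between successive Purkinje ages limma called 0 of 8 at P7 relative to P3, P21 relative to P14, P28 relative to P21 and P35 relative to P28, against 0.0574%, 0.0215%, 0.595% and 0.275% of all probe sets. The counts at an unadjusted p under 0.05 were 4, 1, 2 and 0 of 8. The share of all probe sets at an unadjusted p under 0.05 was not taken. These counts, and the 3 of 8 between P56 and P14, therefore stand without a background. Between P56 and P35, 2 of 8 rose at the later age, against 2.45% of all. These were Id2 1422537_a_at, by 1.31 ± 0.41 (limma adjusted p = 0.023), and Id4 1423259_at, by 1.47 ± 0.44 (limma adjusted p = 0.0184). The other probe sets of both genes differed by 0.08 to 0.68 and were not called, and differences between probe sets of a gene were not tested.

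The changes called in Stellate/Basket cells all ran upward. At P21 relative to P14, 4 Id probe sets rose, against 0.82% of all probe sets. Id2 1435176_a_at rose by 2.82 ± 0.29 (limma adjusted p = 1.69e-07), and Id4 1423259_at, 1450928_at and 1423260_at rose by 5.20 ± 0.48, 4.66 ± 0.51 and 3.28 ± 0.56. These 3 Id4 probe sets had limma adjusted p of 2.86e-08, 4.83e-07 and 4.58e-04, and no P21 array overlapped a P14 array. In this interval 8 of the 12 glial markers and 2 of the 10 Purkinje markers rose and none of the 8 interneuron markers was called. No further step was called at P28 relative to P21 or at P35 relative to P28. Limma called 0 of 8 in each, against 0.87% and 1.09% of all probe sets. At an unadjusted p under 0.05 there were 2 of 8 in each, and the share of all probe sets at that level was not taken.

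At P35 relative to P14, 5 Id probe sets rose, against 1.57% of all probe sets. They were the 4 of the P21 comparison, by 3.78 ± 0.33 for Id2 and between 3.83 and 4.69 for Id4, and Id3, by 1.46 ± 0.27 (limma adjusted p = 4.40e-04). In that interval 10 of 12 glial markers and 5 of 10 Purkinje markers rose, with medians of 2.47 and 2.25, and 2 of 8 interneuron markers fell. Over all genes 1.96% rose and 3.51% fell. When only the P35 and P14 arrays entered the fit, 3 of 8 were called, and Id4 1423260_at and 1450928_at had limma adjusted p of 0.0934 and 0.0548. The share of all probe sets called in that smaller fit was not taken.

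Of the 8 Id probe sets 6 rose in Stellate/Basket cells at P56 relative to P14, against 5.15% of all probe sets, but the interneuron markers averaged 6.34 at P56 against 10.99 at P14. Id2 1435176_a_at rose by 5.52 ± 0.33 and 1422537_a_at by 2.82 ± 0.50, Id4 1423259_at rose by 6.25 ± 0.54, 1450928_at by 5.56 ± 0.57 and 1423260_at by 4.53 ± 0.64, and Id3 rose by 1.64 ± 0.27. Limma adjusted p ran from 4.65e-14 to 5.96e-05. Between P56 and P35 limma called 2 of 8, the Id2 probe sets 1422537_a_at and 1435176_a_at, which rose by 1.71 ± 0.58 and 1.74 ± 0.38, against 3.67% of all probe sets. The P56 group holds 2 arrays, both with Purkinje markers above and interneuron markers below those of the P35 arrays, and the part of these markers in the rise was not tested.

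**Figure D3:**
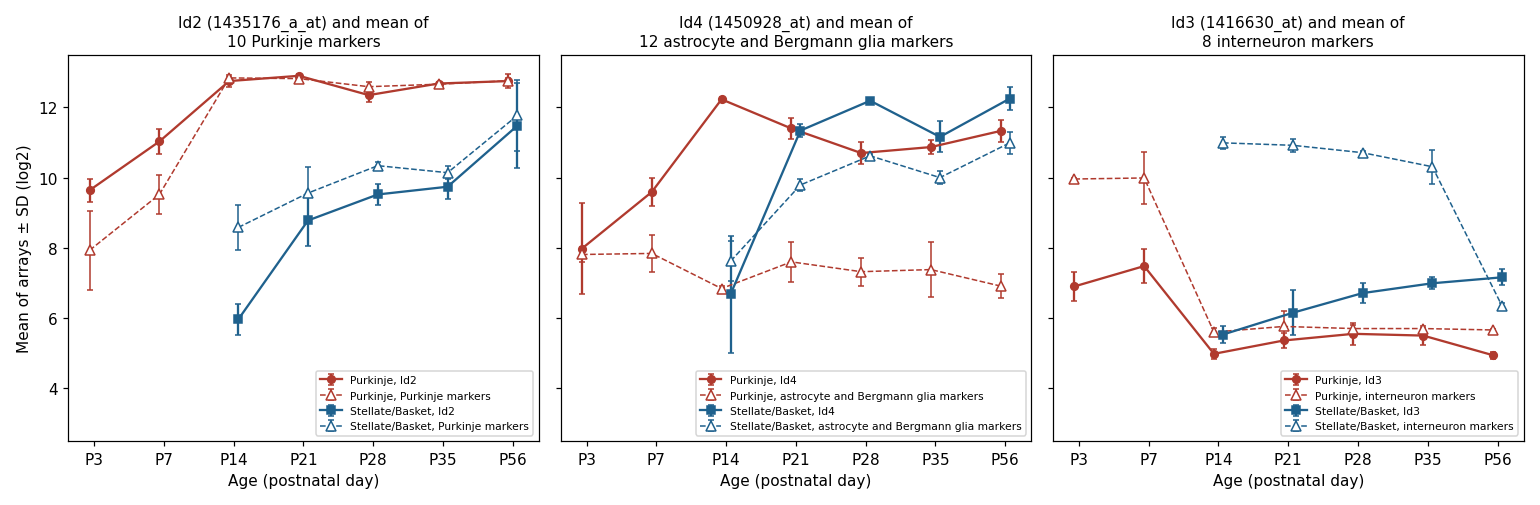
Group means ± SD (log2, y axis) by postnatal age (x axis) for an Id probe set (filled symbols, solid lines) and the mean of a marker list (open triangles, dashed lines) in Purkinje and Stellate/Basket arrays. Id2 and the 10 Purkinje markers are both lowest at P14 among Stellate/Basket groups (5.96 and 8.58), and Id4 and the 12 glial markers are too (6.68 and 7.62). In Purkinje arrays Id4 is highest at P14 (12.23), where the glial markers are lowest (6.84). Id3 and the 8 interneuron markers are high at P3 and P7 alone in Purkinje arrays. In Stellate/Basket arrays from P14 to P56, Id3 goes from 5.53 to 7.16 and the interneuron markers from 10.99 to 6.34.

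The partners of the family and the BMP pathway were described from 8 lists of 81 genes, of which 74 had a probe set with 1 symbol and 72 passed the filter. A gene is its probe set with the highest mean. For the cell type difference averaged over P14, P21, P28 and P35, 3 of the 72 were higher and 10 lower in Purkinje cells, against 6.01% and 6.18% of all 17477 genes. At P14 relative to P7 in Purkinje cells, 3 rose and 16 fell, against 5.7% and 6.83% of all genes. At P56 relative to P14 in Purkinje cells 2 rose and 0 fell, against 1.28% and 0.372%. In Stellate/Basket cells 2 rose and 3 fell at P35 relative to P14, against 1.96% and 3.51%, and 4 rose and 10 fell at P56 relative to P14, against 6.42% and 12.2%.

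Of the 3 E proteins, the direct partners of Id proteins, 2 were lower in Purkinje cells, and the list median was -2.47, against 0.06 over all genes. Tcf4 (1416723_at) was at 5.73 in Purkinje and 11.21 in Stellate/Basket cells over P14 to P35, a difference of -5.48 ± 0.19 (SE, limma adjusted p = 2.27e-21), or 44.7-fold lower in Purkinje cells. Tcf12 (1427670_a_at) was at 6.64 in Purkinje and 9.11 in Stellate/Basket cells, -2.47 ± 0.19 (limma adjusted p = 9.58e-13). Tcf3 (1426297_at) was at 6.10 in Purkinje and 6.30 in Stellate/Basket cells, -0.20 ± 0.10, and was not called. At P14 relative to P7 in Purkinje cells, Tcf4 fell by 5.77 to 5.36, against 11.13 at P7, and Tcf12 fell by 3.02 to 6.35, against 9.38, while Tcf3 differed by -0.31 ± 0.20. The interneuron markers fell in the same interval, as given above, and their part in the E protein changes was not tested. At P56 relative to P14 in Purkinje cells Tcf12 rose by 1.29 ± 0.37 (limma adjusted p = 0.0186). None of the 3 was called in Stellate/Basket cells at P35 relative to P14, with Tcf12 at 0.77 ± 0.41 and Tcf4 at -0.51 ± 0.42. Tcf4 fell there at P56 relative to P14 by 2.10 on the log2 scale, to 9.48 against 11.59. In that interval all 8 interneuron markers fell and 8 of 10 Purkinje markers rose, against 12.2% and 6.42% of all genes. The part of these markers in the Tcf4 value was not tested.

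**Figure D4:**
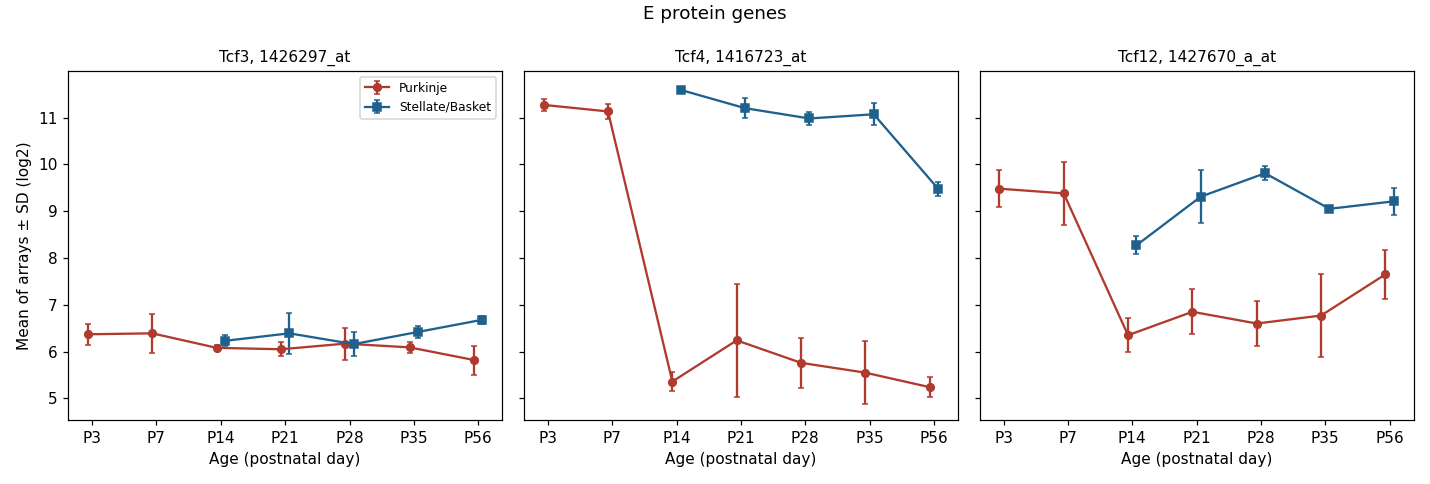
Group means ± SD (log2, y axis) of the E protein genes Tcf3, Tcf4 and Tcf12 by postnatal age (x axis) in Purkinje cells (circles) and Stellate/Basket cells (squares). Tcf4 is at 11.27 and 11.13 in Purkinje arrays at P3 and P7, between 5.24 and 6.24 from P14 on, and between 9.48 and 11.59 in Stellate/Basket arrays.

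Of the 15 tissue-specific bHLH factors tested, 1 was higher and 2 were lower in Purkinje cells over P14 to P35. Olig1, known from oligodendrocyte precursors, was 1.89 ± 0.21 higher (8.30 in Purkinje and 6.41 in Stellate/Basket cells). Neurod1, a differentiation factor of granule and other neurons that also stands in the granule cell marker list, was -4.58 ± 0.18 (5.87 in Purkinje and 10.45 in Stellate/Basket cells) and Neurod2 -1.26 ± 0.12. At P14 relative to P7 in Purkinje cells Olig1 rose by 1.88 and 4 factors fell, among them Neurod1 (-4.98 ± 0.38), Nhlh2 (-3.92 ± 0.25) and Neurod6 (-3.84 ± 0.22). The part of the interneuron, Golgi and granule cell markers that fell in this interval was not tested. Neurod2 (-1.15 ± 0.27) and Nhlh2 (-1.36 ± 0.26) fell in Stellate/Basket cells at P35 relative to P14. The list medians were -0.11, 0.04 and 0.19 in these 3 comparisons, against 0.06, 0.07 and 0.04 over all genes. Of the 9 Hes, Hey and related repressors, which act in Notch signalling and the clock, Bhlhe40 was -1.43 ± 0.11 in Purkinje relative to Stellate/Basket cells and no other was called in that comparison. None was called at P14 relative to P7 in Purkinje cells, where Hes6 (-0.70 ± 0.32) and Hey1 (0.49 ± 0.19) differed most, or at P35 relative to P14 in Stellate/Basket cells, where Hes5 (-0.47 ± 0.13) and Bhlhe41 (0.44 ± 0.15) did.

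Among the 9 BMP and GDF ligands, Gdf10, a ligand known from Bergmann glia, was -3.37 ± 0.38 in Purkinje relative to Stellate/Basket cells over P14 to P35 (6.36 and 9.73, limma adjusted p = 7.59e-09). It rose in Stellate/Basket cells by 3.37 ± 0.85 at P35 relative to P14 (10.44 against 7.07) and by 4.70 ± 0.85 at P56, beside the glial markers. Bmp5 rose there by 1.24 ± 0.33 at P35. In Purkinje cells at P14 relative to P7, Bmp5 rose by 1.18 ± 0.31, and Bmp6 (-1.43 ± 0.27) and Bmp2 (-1.26 ± 0.17) fell. Of the 7 receptors, Acvr2a, a type II receptor, was -1.51 ± 0.13 in Purkinje relative to Stellate/Basket cells and -1.97 ± 0.27 at P14 relative to P7 in Purkinje cells, and no other was called. The part of the markers that moved from P7 to P14, given above, in these ligand and receptor values was not tested. No receptor was called in Stellate/Basket cells at P35 relative to P14, with Acvr2b at 0.45 ± 0.24 and Acvr2a at -0.43 ± 0.29.

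Of the 7 Smads tested, the common partner Smad4 and the activin and TGF-beta effector Smad3 were -2.19 ± 0.13 and -2.53 ± 0.12 in Purkinje relative to Stellate/Basket cells. At P14 relative to P7 in Purkinje cells Smad3 (-2.42 ± 0.26), the BMP effector Smad5 (-1.51 ± 0.34), Smad4 (-1.16 ± 0.27) and Smad2 (-1.16 ± 0.22) fell. The list median was -1.16, against 0.07 over all genes. Interneuron, Golgi and granule cell markers fell and Purkinje markers rose in this interval, as given above. Their part in the Smad changes, and in the antagonist changes below, was not tested. No Smad was called in Stellate/Basket cells at P35 relative to P14, where Smad2 was -0.72 ± 0.23 and Smad5 -0.72 ± 0.36. Of the 11 antagonists, which bind BMPs or block their receptors, Chrdl1 and Crim1 were higher in Purkinje cells by 2.56 ± 0.15 and 2.06 ± 0.18. Chrdl1 rose in Purkinje cells at P14 relative to P7 (1.58 ± 0.31) and again at P56 relative to P14 (1.55 ± 0.29), and Bmper fell at P14 relative to P7 (-1.36 ± 0.18). None of the antagonists was called in Stellate/Basket cells at P35 relative to P14, with Bambi at 0.91 ± 0.27 and Crim1 at 0.88 ± 0.41. At P56 relative to P14 Crim1 and Bambi rose there by 3.18 ± 0.41 and 2.09 ± 0.27, and 1 other antagonist, not named here, fell. In this P56 comparison 8 of 10 Purkinje markers and 11 of 12 glial markers rose, with medians of 3.91 and 3.35. All 8 interneuron markers fell, while over all genes 6.42% rose and 12.2% fell. The part of these markers was not tested.

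The last list joined other Id partners, such as the retinoblastoma and Elk proteins, with the cyclin-dependent kinase inhibitors that E proteins are known to raise. Of its 11 tested genes Cdkn1b was -1.01 ± 0.15 in Purkinje relative to Stellate/Basket cells. At P14 relative to P7 in Purkinje cells Cdkn1c fell by 5.18, to 5.86 against 11.04, and Cdkn1a fell by 1.55, to 9.25 against 10.80. Interneuron, Golgi and granule cell markers fell in the same interval, and their part in these values was not tested. Cdkn1a also fell in Stellate/Basket cells at P35 relative to P14, to 9.34 against 10.83. The list medians were 0.18, 0.06 and -0.05 in these comparisons, close to the 0.06, 0.07 and 0.04 over all genes.

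The probe sets of a gene followed each other over the 12 group means. Pearson's r between probe sets was 0.823 to 0.924 for Id2 and 0.927 to 0.949 for Id4, given as a description of means that share arrays. The genes whose 12 group means were most like those of an Id gene were sought among 7978 genes, by Pearson's r to its brightest probe set. For Id2 they were Calb1 (0.973), which encodes the calcium buffer calbindin, the glutamate transporter gene Slc1a6 (0.951), Hpcal1 (0.947), Tmem255a (0.945) and Nrk (0.945). Calb1 and Slc1a6 also stand in the Purkinje marker list. For Id4 they were the AMPA receptor subunit gene Gria1 (0.951), Hopx (0.909), which stands in the glial marker list, Dnal1 (0.890), Gpr37l1 (0.881) and Pon2 (0.880). For Id3 they were Tmem176b (0.952), Calb2 (0.947), which stands in the Golgi and unipolar brush cell list, Rgma (0.947), Prorsd1 (0.937) and Rnd2 (0.935). For Id1, whose means hardly spread, they were Slc5a5 (0.885), Prss2 (0.875), Nkx6-2 (0.871), H2ac19 (0.863) and Kcnn3 (0.862).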

How the data were processed

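The deposited table holds 1 log2 value per probe set and array from Affymetrix MOE430.2 arrays, normalized by the authors; R 2.9.1 and GCRMA are named per the submitters' processing notes, with no settings. Of 42 columns, Stellate/Basket P35 replicate 3 and P56 replicate 2 equal the mean of the 2 other columns of their group in every probe set and were left out, which leaves 40 arrays. Control probe sets (64) were left out. Probe sets were named from the array's annotation: 34945 have 1 symbol, 932 several and 9160 none.

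The 41843 probe sets that read above 5 (log2) on 3 or more arrays entered limma 3.58.1 (R 4.3.3). The model held a mean for each of the 12 groups of cell type and age, no covariate, moderated variances and Benjamini-Hochberg adjustment over all of them. The fit was tested on simulated data. P-values measure the spread between arrays labelled as biological replicates, whose number limits the precision. A gene in a list is its probe set with the highest mean. Named were all Id probe sets, up to 4 called genes of each list per comparison, or the 2 with the largest difference where none was called, and the 5 genes most like each Id gene among those whose group means span at least 1; genes named beyond this were chosen after their values were seen. The members and lists were chosen with earlier results of these data known. Over 191 same-numbered pairs of arrays from different groups the median correlation of deviations was -0.00127, from -0.479 to 0.353. Over 539 differently numbered pairs the median was -0.000171. Pairs were pooled over all groups, so a pairing of the cell types within an age could not be seen. Some listed genes are not reported here. Plots used matplotlib 3.10.9 under Python 3.11.15.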

Additional observations from a re-analysis of the deposited data

Results flagged for a closer look

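Within groups of 4 arrays, 3 of 48 tested sets of Id values held 1 array far from the others, and chance gives about 1 in 20. Id2 1435176_a_at read 9.06 in Stellate/Basket P28 replicate 4, below the 3 others. Id3 read 5.05 in Purkinje P21 replicate 3, below the others, and 7.14 in Stellate/Basket P28 replicate 3, above them.

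For some probe sets every Purkinje array of the later age was below every Purkinje P14 array, while every Stellate/Basket array of that age was above every Stellate/Basket P14 array. The difference between the cell types was not tested, since the family was chosen on the cell type contrast. At P35 relative to P14, the difference of Id4 1423259_at was -2.26 in Purkinje and 4.69 in Stellate/Basket cells, that of 1423260_at -1.39 in Purkinje and 3.83 in Stellate/Basket cells, and that of 1450928_at -1.36 in Purkinje and 4.48 in Stellate/Basket cells. At P56 relative to P14, the difference of 1423260_at was -1.21 in Purkinje and 4.53 in Stellate/Basket cells, and that of 1450928_at -0.90 in Purkinje and 5.56 in Stellate/Basket cells. That of Id1 was -0.69 in Purkinje and 0.61 in Stellate/Basket cells. At P56 relative to P14 none of these Purkinje differences was called, nor was Id1 in Stellate/Basket cells, and the Purkinje differences at P35 are given as values with no test.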

How the results depend on the processing

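Direction was followed for Id probe sets alone, at Purkinje P56 minus P3, P14 minus P7 and P56 minus P14. In Stellate/Basket cells it was followed at P35 minus P14 and P56 minus P14. In these comparisons no difference called in the main fit or in an alternative changed direction between them. The direction of differences called in neither was not followed. The alternatives were other filters, normalizations and variance models, all 42 columns, and only the groups compared. Xist or the 90th percentile as a covariate, other thresholds and a replicate block were also tried. So were P3 in place of P7 (added after seeing the data) and each array left out. With 1 probe set per gene 4 were then tested, of which 4 changed over Purkinje ages, 3 over Stellate/Basket ages, and 3 were called in each of Purkinje P56 minus P3, Purkinje P14 minus P7, Stellate/Basket P35 minus P14 and P56 minus P14. Over Purkinje P14 to P56 alone 2 of 8 changed. At Purkinje P56 minus P14, 1 of 8 was called with only the groups compared (Id4 1423260_at, lower), 1 by adjusted p alone (Id1, lower), and 0 to 1 with an array left out (Id2 1453596_at, higher, without P56 replicate 2). At Stellate/Basket P35 minus P14, 3 of 8 were called with only the groups compared. The shares of all probe sets or genes called at the alternative settings were not taken. The Id counts here and below therefore stand without a background, except that over Purkinje P14 to P56, where 28.3% of all probe sets changed.

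Of the 72 pathway genes tested, the cell type difference called 38 by adjusted p alone. It called 8 at adjusted p under 0.01 and a difference of at least 2. Purkinje P14 minus P7 called 7 at that stricter setting. The shares of all genes called at the alternative settings were not taken, so these counts stand without a background. Stellate/Basket P35 minus P14 called 5, then 3 with only the groups compared, 12 by adjusted p alone, 1 at the stricter setting, and 3 to 5 with an array left out, 3 without P35 replicate 1.

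With the replicate block, 8 probe sets changed over Purkinje ages and 6 over Stellate/Basket ages. At Purkinje P14 minus P7, 6 were called. These counts were as without it, and the replicate block changed no count. The block used the replicate number across all groups, so it does not stand for a pairing within an age. Leaving out 1 array gave 5 to 6 calls at Purkinje P14 minus P7 and 6 to 6 at P56 minus P3. In the P14 minus P7 comparison Id4 1423260_at lost its call without P7 replicate 1 or without any 1 of the 3 P14 arrays. Of the values of single Id probe sets, 1595 stayed called or stayed uncalled with 1 array left out, 4 lost a call and 1 gained one. Under other alternatives 525 stayed as they were, 8 lost a call and 7 gained one. The signal of dim probe sets, with no detection call, limits what can be said of Id3 in Purkinje cells and of Id2 1453596_at. The same holds for Id3 in Stellate/Basket cells at P14, from which its rises were measured.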
